A study of Mus musculus with 12 samples.

Results

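The genes described here are 44 early genes of neuronal activity, taken by gene symbol from a list of immediate and delayed early genes and read by genotype and tissue. All 44 were measured, each by 1 probe set that carries a single gene symbol, out of 19938 genes with such a probe set. By role the list was split into 20 rapid transcription factors, 13 rapid regulators and effectors, 9 delayed effectors and 2 later transcription factors. The list did not use measured values, but it was drawn up with earlier results of the same arrays known.

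Adult C57BL/6 mice that lacked RasGRF2 (GRF2 KO) were compared with wild-type (WT) mice of the same strain, 3 animals of each genotype, and olfactory bulb and hippocampus were taken from each animal. RasGRF2 activates the small GTPases Ras and Rac by guanine nucleotide exchange, and in neurons it couples calcium entry to them. The 12 samples of total RNA were hybridised to 1 array each and form 4 groups of 3: WT bulb, KO bulb, WT hippocampus and KO hippocampus. No treatment was applied, and the mice of both genotypes were kept in a conventional facility where common pathogens were present. The sources used here do not give sex, age in weeks, littermate status, the exons removed, or the time and handling before dissection, so the levels are those of animals taken without a stated stimulus. WT replicates are numbered 1 to 3 and KO replicates 4 to 6. By the animal codes of the labels, WT bulb arrays 1, 2 and 3 come from N135, I547 and N138, WT hippocampus arrays 1, 2 and 3 from I547, N135 and N138, and KO arrays 4, 5 and 6 from N384, N386 and N390 in both tissues. Values are log2 intensities, so a difference of 1 is a doubling, and no level of one gene is set against that of another.

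When a neuron fires, calcium entry activates kinases of the Ras and ERK, PKA and CaM kinase pathways, and these phosphorylate factors such as CREB, SRF with its partners and MEF2 that already sit on promoters. Immediate early genes are transcribed within minutes without new protein synthesis, and many encode transcription factors (Fos, Egr, Nr4a and Npas4 families) or proteins that end the signal. The delayed effectors are synaptic, secreted and signalling proteins whose transcripts build up later and last longer. In the olfactory bulb, odour input drives these genes in mitral, tufted and granule cells. In the hippocampus they mark cells active during exploration and learning.

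A promoter letter pattern searched for in the members was the cAMP response element (CRE), the site of CREB. Promoter windows of 250 bases before to 50 after the start, from RefSeq (GRCm38.p6), were matched by gene identifier for 34 of the 44 members and searched on both strands. Not matched were Arc, Crem, Egr1, Egr3, Ier2, Klf10, Nptx2, Sik1, Trib1 and Vgf. The core TGACG, or its complement CGTCA, lay in at least 1 window of 24 of the 34 members (70.6%) and of 23% of 27025 genes with a window. It lay in 14 of 17 rapid transcription factors, 4 of 9 rapid regulators and effectors and 5 of 7 delayed effectors. The full palindrome TGACGTCA, which holds the core on each strand, lay in 5 members (Btg2, Dusp1, Maff, Plk2 and Scg2, or 14.7%, against 2.03% of genes). By class these were 1 of 17 rapid transcription factors, 2 of 9 rapid regulators and effectors and 2 of 7 delayed effectors. The CArG box, the site of SRF, lay in 1 of 34 (Egr2), against 1.81% of genes. A match describes letters in a window and is not a measured site. Sites farther than 250 bases before the start, and those of the unmatched members, Egr1 and Egr3 among them, were not searched. The 250 bases before the start are shown for the matched genes that fell in the KO bulb and for Plk2, a delayed gene with the full element whose KO and WT groups overlapped in both tissues. Each runs 5′ to 3′ on the gene's own strand, with the core in capitals.
Fosb, chr7:19310046-19310295, minus strand: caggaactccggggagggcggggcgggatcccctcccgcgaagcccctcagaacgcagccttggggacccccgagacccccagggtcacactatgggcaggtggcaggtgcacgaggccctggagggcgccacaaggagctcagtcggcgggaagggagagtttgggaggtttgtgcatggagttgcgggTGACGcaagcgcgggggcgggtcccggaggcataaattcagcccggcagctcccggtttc
Npas4, chr19:4989972-4990221, minus strand: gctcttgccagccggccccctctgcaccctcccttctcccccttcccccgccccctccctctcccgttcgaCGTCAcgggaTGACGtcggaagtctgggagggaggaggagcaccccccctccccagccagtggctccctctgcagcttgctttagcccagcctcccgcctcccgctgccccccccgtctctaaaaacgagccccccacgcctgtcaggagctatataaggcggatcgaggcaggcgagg
Btg2, chr1:134079156-134079405, minus strand: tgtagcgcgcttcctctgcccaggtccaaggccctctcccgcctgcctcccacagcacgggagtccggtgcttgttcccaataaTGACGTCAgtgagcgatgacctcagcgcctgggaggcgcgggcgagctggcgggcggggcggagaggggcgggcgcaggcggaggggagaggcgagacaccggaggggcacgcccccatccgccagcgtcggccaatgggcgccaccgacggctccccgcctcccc
Egr4, chr6:85513590-85513839, minus strand: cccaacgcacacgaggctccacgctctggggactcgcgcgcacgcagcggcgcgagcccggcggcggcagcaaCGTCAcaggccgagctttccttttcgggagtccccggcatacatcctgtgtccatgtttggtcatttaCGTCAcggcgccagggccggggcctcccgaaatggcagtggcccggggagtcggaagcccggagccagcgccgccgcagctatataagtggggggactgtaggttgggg
Nr4a2, chr2:57124004-57124253, minus strand: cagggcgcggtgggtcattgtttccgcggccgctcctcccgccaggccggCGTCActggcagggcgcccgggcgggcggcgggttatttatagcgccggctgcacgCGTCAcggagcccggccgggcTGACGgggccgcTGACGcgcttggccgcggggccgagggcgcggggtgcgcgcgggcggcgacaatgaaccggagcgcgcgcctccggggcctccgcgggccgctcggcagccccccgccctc
Plk2, chr13:110394794-110395043, plus strand: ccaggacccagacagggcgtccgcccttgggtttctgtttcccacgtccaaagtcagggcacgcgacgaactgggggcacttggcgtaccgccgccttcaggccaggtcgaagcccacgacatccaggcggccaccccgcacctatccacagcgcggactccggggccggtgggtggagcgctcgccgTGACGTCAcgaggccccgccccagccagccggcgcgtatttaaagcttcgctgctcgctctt
Counting the base before the start as -1, the only core in Fosb began at -60. Npas4 held 2 cores, from -179 and from -169, and Egr4 held 2, from -177 and from -109. Nr4a2 held 4, between -200 and -107. The full element of Btg2 began at -166 and that of Plk2 at -62, and Plk2 held another core after the start, outside the bases shown.

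The tissue labels were checked on markers: all 10 bulb neuron markers were higher in WT bulb, and all 10 hippocampal neuron markers were higher in WT hippocampus, each past the test. Rasgrf2 itself ran from 9.14 to 9.32 in WT and from 8.49 to 8.76 in KO hippocampus (-0.58, SE 0.0773, limma adjusted p = 0.00197). In bulb it ran from 9.47 to 9.53 in WT and from 9.33 to 9.43 in KO (-0.14, adjusted p = 0.532). The groups did not overlap in either tissue, but the sources used here do not place the probe set relative to the deletion, so these values check the labels only in part. Array medians lay between 6.93 and 6.96 in bulb and between 6.82 and 6.89 in hippocampus. Because whole tissue was measured, fewer cells of a type and less RNA per cell cannot be told apart.

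In the olfactory bulb, 6 of the 44 early genes were lower in knockout mice: Fosb, Npas4, Btg2, Egr3, Egr4 and Nr4a2. Fosb fell 2.11-fold, Npas4 1.97-fold and Btg2 1.68-fold, and Egr3, Egr4 and Nr4a2 fell 1.39-fold to 1.42-fold. Of these 6, 5 are rapid transcription factors, 1 (Btg2) is a rapid regulator and 0 are delayed effectors. A gene was called where limma's p, adjusted by Benjamini and Hochberg over all 19938 genes, was under 0.05. By that rule 0.226% of all genes were lower and 0.186% higher in KO bulb, and 0 members were higher. Below 0 lay 37 of 44 members, with a median of -0.09, against 55.5% of all genes and a median of -0.02. At an unadjusted p under 0.05 stood 15 members (34.1%) and 11.3% of all genes.

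Fosb, which encodes a partner of Jun proteins in the AP-1 complex, read 9.30, 9.20 and 9.65 in WT bulbs 1 to 3 and 8.15, 8.68 and 8.10 in KO bulbs 4 to 6. The lowest WT bulb lay above the highest KO bulb. Fosb fell by 1.07 (SE 0.209, limma adjusted p = 0.0415).
Npas4, a neuron-restricted factor induced by calcium entry that controls inhibitory synapse genes, read 10.31, 10.17 and 10.54 in WT and 9.34, 9.65 and 9.09 in KO bulbs. Again the groups did not overlap. Npas4 fell by 0.98 (SE 0.198, adjusted p = 0.0468).
Btg2, an antiproliferative cofactor that is also a rapid target of neuronal activity, read 9.34, 9.40 and 9.67 in WT and 8.62, 8.98 and 8.56 in KO bulbs. Every KO bulb lay below every WT bulb. Btg2 fell by 0.75 (SE 0.128, adjusted p = 0.0188), the smallest adjusted p among the members.

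Egr3 and Egr4 encode zinc finger factors of the family of Egr1. Egr3 read 8.87, 9.04 and 9.26 in WT and 8.60, 8.63 and 8.42 in KO bulbs, and it fell by 0.50 (SE 0.0963, adjusted p = 0.0375). Egr4 read 8.06, 8.20 and 8.37 in WT and 7.71, 7.75 and 7.68 in KO bulbs, and it fell by 0.49 (SE 0.0967, adjusted p = 0.044). In both genes the groups were separate. Nr4a2, an orphan nuclear receptor gene known for its part in dopaminergic neurons, read 9.89, 9.93 and 10.02 in WT and 9.48, 9.56 and 9.38 in KO bulbs. It fell by 0.47 (SE 0.0964, adjusted p = 0.04995), just inside the threshold, with no overlap.

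**Figure D1:**
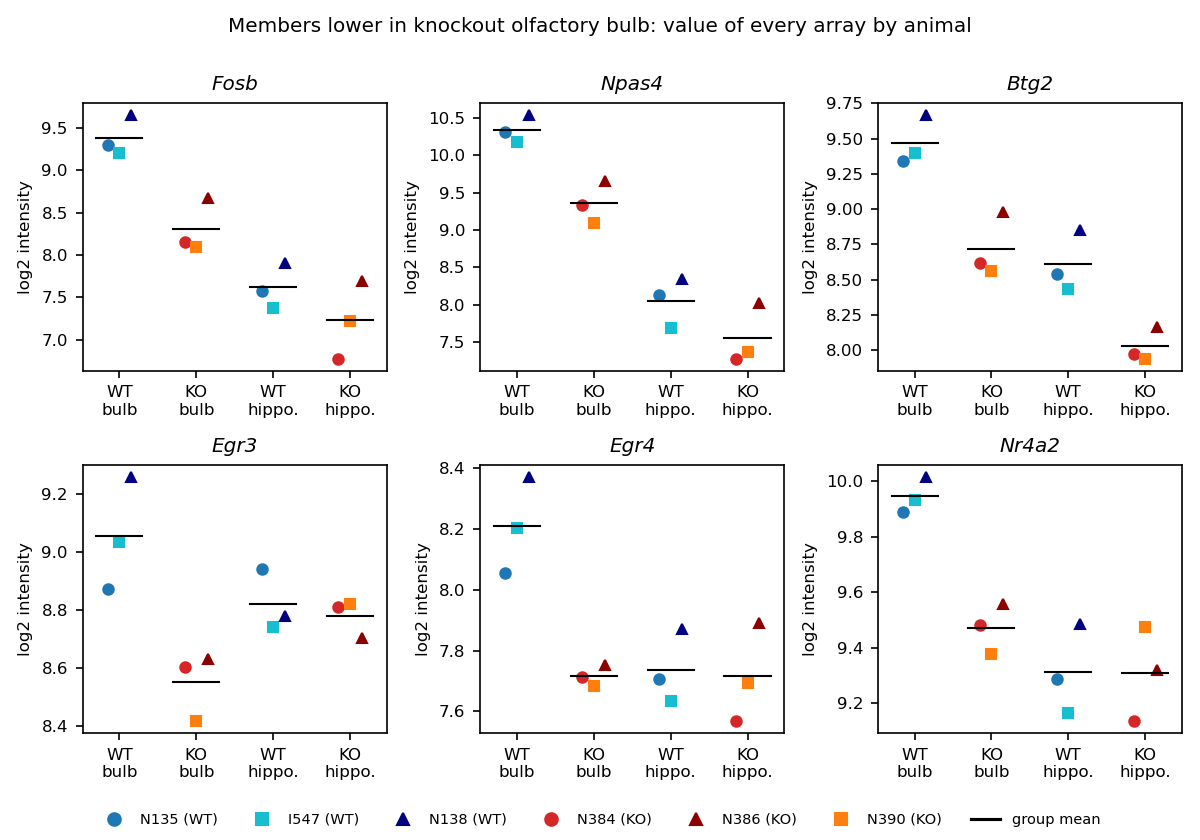
Log2 intensity (vertical axis, a separate scale for each gene that does not start at 0) of the 6 genes that fell in KO olfactory bulb, in all 12 arrays by group; symbols mark the animals by code and black lines the group means of 3. In each panel the 3 KO bulb arrays lie below the 3 WT bulb arrays, and in hippocampus the groups are separate for Btg2 alone of the 6.

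The number of calls depended on single arrays. Without WT bulb 2, KO bulb 4 or KO bulb 6 the calls among the members were 0, and without WT bulb 1 (Btg2, Egr3 and Egr4) or KO bulb 5 (Btg2, Fosb and Npas4) they were 3. Calls over all genes fell as well, from 82 to 40 without WT bulb 2, 41 without KO bulb 4 and 35 without KO bulb 6. They were 38 without WT bulb 1 and 50 without KO bulb 5. Without WT bulb 3, from animal N138, none of the 6 passed and Vgf alone did, while the number of called genes of all kinds was 105 there against 82 with every array. Over the 15 alternatives the adjusted p ran from 0.005 to 0.106 for Btg2, from 0.0237 to 0.194 for Fosb and from 0.00949 to 0.243 for Nr4a2. With the animal code as a random block Npas4 (adjusted p = 0.0547) and Nr4a2 (adjusted p = 0.05055) missed the threshold, and the others passed. With the bulb arrays alone Fosb, Npas4 and Nr4a2 passed, and Btg2, Egr3 and Egr4 did not. The differences of these 6 genes kept their sign in each of the 15, with Fosb between -1.26 and -0.94 and Btg2 between -0.88 and -0.65. Their groups did not overlap, so leaving out or weighting arrays could not turn a sign. Of the settings, only median centring and quantile normalization changed the values of these genes.

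The other rapid transcription factors of the bulb did not pass the test. Fos, the partner of Jun in AP-1 that is the usual marker of active neurons, read 8.26, 8.14 and 8.86 in WT and 7.78, 8.09 and 7.71 in KO bulbs. Its groups were separate, with KO bulb 5 just below WT bulb 2, and the difference was -0.56 (SE 0.188, adjusted p = 0.304). Nr4a3 read 9.22, 9.12 and 9.55 in WT and 8.70, 9.02 and 8.86 in KO bulbs, also without overlap (-0.44, adjusted p = 0.149). Egr2, at 8.24, 8.30 and 8.95 in WT and 8.23, 8.19 and 8.05 in KO bulbs, was high in WT bulb 3 alone, and the groups nearly met (-0.34, SE 0.243, adjusted p = 0.619). Nr4a1 (-0.24), Fosl2 (-0.22) and Egr1 (-0.17) overlapped between the genotypes. Csrnp1, Klf10, Atf3, Jun and Junb lay between -0.07 and -0.02, and Maff at -0.00079. Klf4, Klf2 and Klf6, Krüppel-like factors that are also expressed in vessels and glia, had differences of 0.05, 0.08 and 0.12. Across the 20 factors, 17 lay below 0 and the median was -0.19.

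Among the 13 rapid regulators and effectors 10 lay below 0, with a median of -0.12, and Btg2 alone passed. Arc, a synaptic protein that promotes removal of AMPA receptors, read 9.94, 10.003 and 10.45 in WT and 9.51, 9.97 and 9.35 in KO bulbs. KO bulb 5 lay above WT bulb 1, so the groups overlapped (-0.52, SE 0.196, adjusted p = 0.351). The DNA repair and demethylation factor gene Gadd45b (-0.35), the MAP kinase phosphatase gene Dusp1 (-0.31), the matrix protein gene Ccn1 (-0.29) and Ier2 (-0.08) had separate groups and adjusted p from 0.281 to 0.749. Fbxo33, an F-box protein gene, went the other way: it read 8.62, 8.61 and 8.77 in WT and 9.07, 8.96 and 8.94 in KO bulbs. Each KO bulb was above each WT bulb, but the difference of 0.32 (SE 0.0813) had an adjusted p of 0.13. Ier3 was the other member with all KO bulbs higher (0.15). The rest, Trib1, Gadd45g, Ier5, Sik1 and Plk3, lay between -0.16 and 0.04 and overlapped.

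None of the 9 delayed effectors passed in the bulb, although 8 lay below 0, with a median of -0.07. The farthest was Vgf, a secretory granule protein gene, at -0.28 (SE 0.107, adjusted p = 0.36), with overlap. Pim1, a serine/threonine kinase gene, had separate groups at -0.15. Homer1, whose short form uncouples postsynaptic receptors, lay at -0.15 and Rgs2, which limits G protein signals, at -0.11. With 1 probe set for Homer1, its forms were not told apart. Inhba (-0.07), the pentraxin gene Nptx2 (-0.04), the kinase gene Plk2 (-0.04), the cyclooxygenase-2 gene Ptgs2 (-0.04) and the granin gene Scg2 (0.04) made up the rest. The later factors Nfil3 and Crem lay at -0.05 and -0.03. In all, 14 of the 44 members had every KO bulb below every WT bulb, against 8.87% of genes, and 2 had every KO bulb above, against 8.22%.

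**Figure D2:**
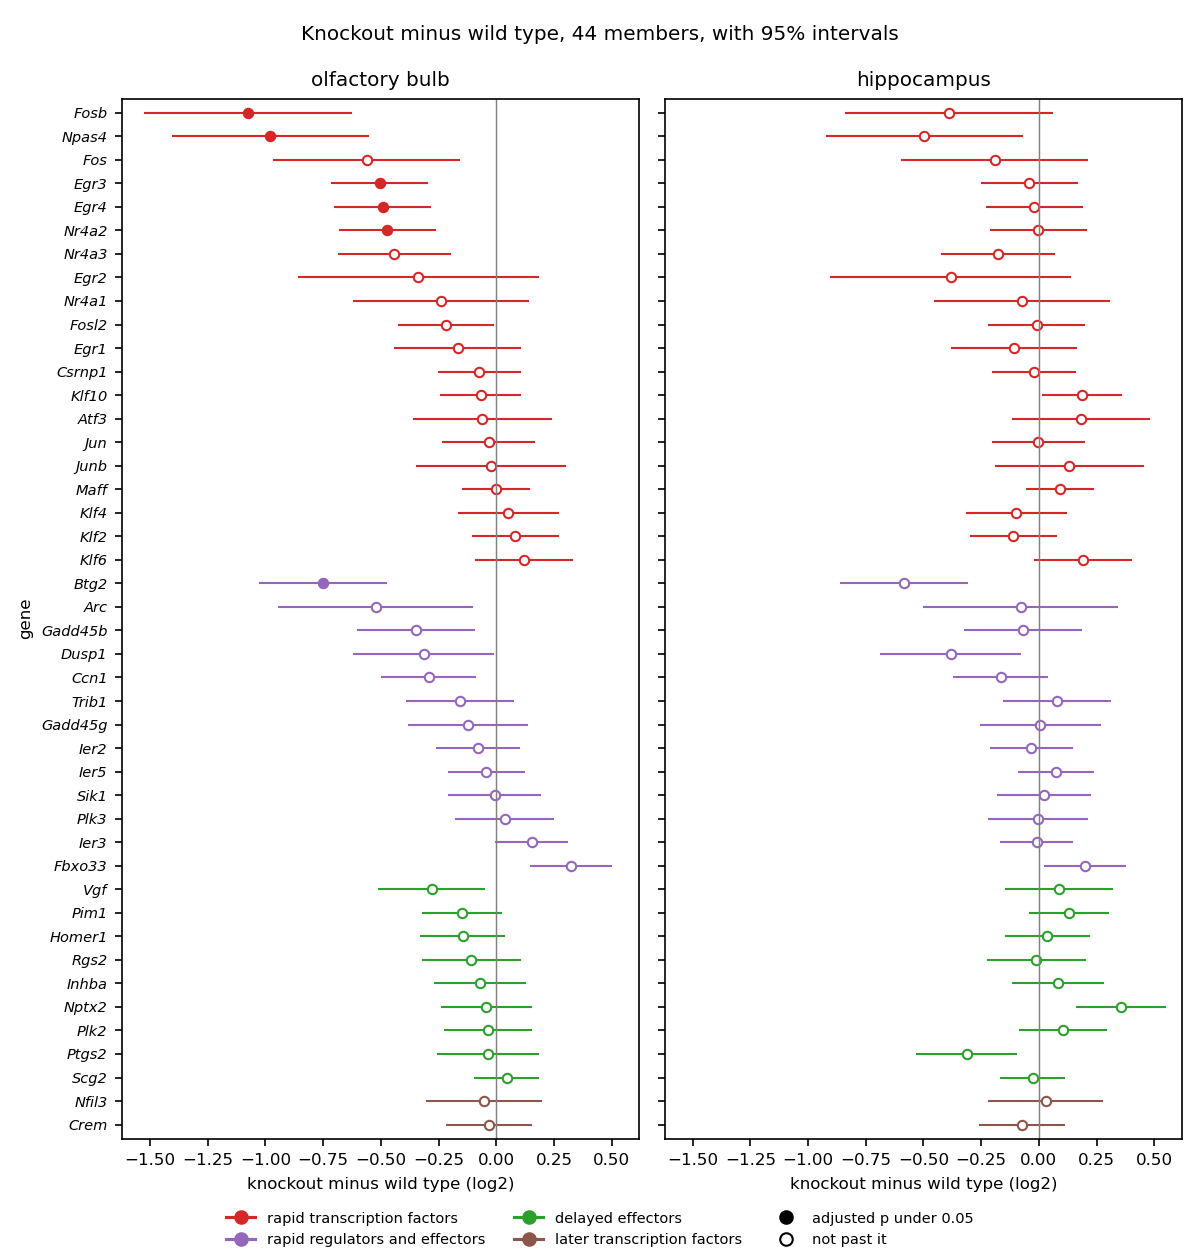
Knockout minus wild-type difference (horizontal axis, log2 units, with 95% intervals of the limma fit) of the 44 members in olfactory bulb (left) and hippocampus (right), grouped by role; filled points passed an adjusted p under 0.05. The 6 filled points all stand below 0 in bulb, and no point is filled in hippocampus.

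Rapid transcription factors and delayed effectors were set side by side as classes, with no test, since the lists were made with results known. The mean log2 level of the 20 rapid transcription factors was 8.41, 8.50 and 8.74 in WT bulbs and 8.25, 8.39 and 8.17 in KO bulbs. The groups did not overlap, with KO bulb 5 just below WT bulb 1. The mean of the 9 delayed effectors was 8.57, 8.66 and 8.48 in WT and 8.46, 8.52 and 8.46 in KO bulbs. Here WT bulb 3, the highest array of the rapid class, was the lowest WT array, and the groups overlapped. The class medians, -0.19 for rapid factors and -0.07 for delayed effectors, were in the reverse order without WT bulb 3, at -0.04 and -0.14. Subtracting the delayed from the rapid mean within each array gave -0.16, -0.16 and 0.26 in WT bulbs and -0.20, -0.13 and -0.28 in KO bulbs, which overlapped. The KO minus WT shift of the class means was -0.27 for the rapid and -0.09 for the delayed class with all arrays, and -0.18 and -0.14 without WT bulb 3. Leaving out that array thus turned the order of the medians but not that of the means, and brought the means closer together.

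**Figure D3:**
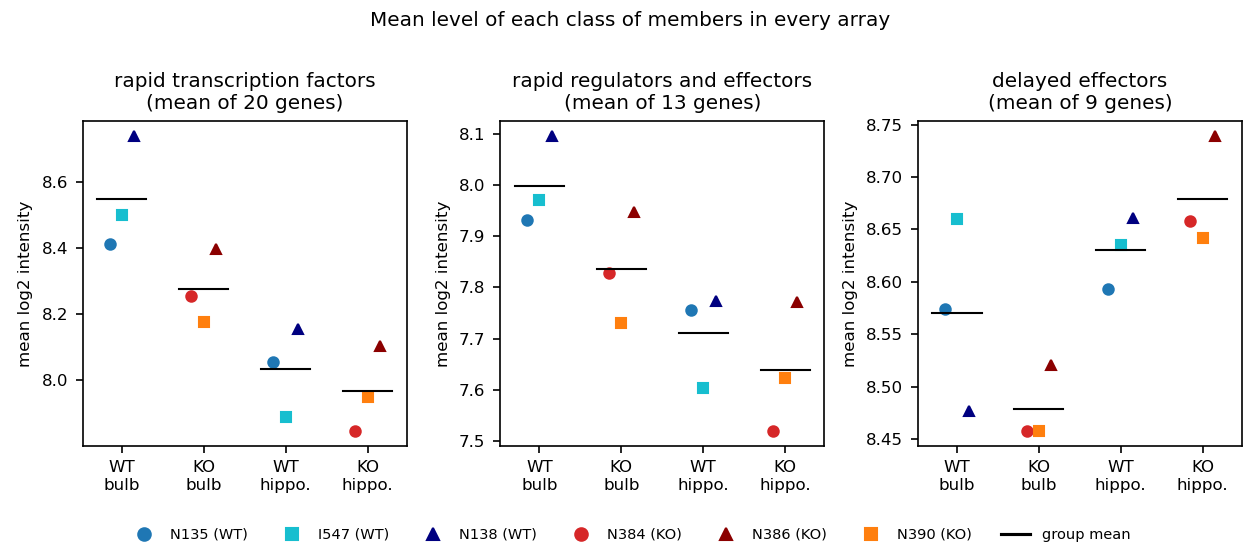
Mean log2 intensity of each class (vertical axis, a separate scale for each class that does not start at 0) in all 12 arrays by group, with symbols for the animals and black lines for group means of 3. WT animal N138 is the highest WT bulb for rapid factors (8.74) and the lowest WT bulb for delayed effectors (8.48).

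In the hippocampus 0 of the 44 early genes passed the test, while 0.256% of all genes did. At an unadjusted p under 0.05 stood 7 members, against 8.91% of all genes: Btg2, Npas4, Dusp1 and Ptgs2 below 0 and Nptx2, Fbxo33 and Klf10 above it. Below 0 lay 27 of 44 members (61.4%), with a median of -0.01, against 37% of all genes and a median of 0.03. Every KO array was below every WT array for Btg2 and Ptgs2 (background 3.66%) and above it for Nptx2, Klf10 and Klf6 (background 9.39%). The rapid transcription factors had a median of -0.03 and the delayed effectors one of 0.08, with 15 of 20 and 3 of 9 below 0. Their class means overlapped between the genotypes: 7.89, 8.05 and 8.15 in WT and 7.85, 8.10 and 7.95 in KO for the rapid class, and 8.64, 8.59 and 8.66 in WT and 8.66, 8.74 and 8.64 in KO for the delayed class.

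Btg2, which fell in bulb, was the lowest in hippocampus. It read 8.43, 8.54 and 8.85 in WT hippocampus 1 to 3 and 7.97, 8.17 and 7.94 in KO hippocampus 4 to 6, with no overlap (-0.58, SE 0.128, limma adjusted p = 0.0989). Npas4 read 7.68, 8.14 and 8.35 in WT and 7.28, 8.03 and 7.37 in KO (-0.50, adjusted p = 0.518), and KO hippocampus 5 lay within the WT range. Fosb, at 7.37, 7.57 and 7.91 in WT and 6.78, 7.69 and 7.22 in KO, overlapped as well (-0.39, adjusted p = 0.609). Dusp1, which switches off MAP kinases, read 8.89, 9.08 and 9.36 in WT and 8.46, 8.96 and 8.77 in KO (-0.38, adjusted p = 0.489). Egr2 read 6.92, 7.70 and 8.06 in WT and 6.93, 7.54 and 7.06 in KO (-0.38, SE 0.243, adjusted p = 0.66), so WT hippocampus 1 was as low as the lowest KO array. With limma's trend and robust settings Btg2 passed, and with array weights Btg2, Dusp1, Nptx2 and Ptgs2 passed. Calls over all genes rose too, from 51 to 71 with trend and robust settings and to 336 with array weights. In the other 13 settings no member passed.

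The delayed effectors of the hippocampus differed in sign. Nptx2, a secreted pentraxin that gathers AMPA receptors at excitatory synapses on interneurons, read 8.18, 8.21 and 8.18 in WT and 8.53, 8.56 and 8.56 in KO. The SD was 0.02 in each genotype, and the groups were separate (0.36, SE 0.0897, adjusted p = 0.193). Ptgs2, which makes prostaglandins, read 10, 9.83 and 9.96 in WT and 9.62, 9.77 and 9.46 in KO, also separate (-0.31, SE 0.101, adjusted p = 0.401). Fbxo33, which belongs to the rapid regulators and effectors, read 9.002, 9.01 and 9.22 in WT and 9.33, 9.32 and 9.17 in KO (0.20, adjusted p = 0.525). Here KO hippocampus 6 lay inside the WT range. Of the genes that fell in bulb, Egr3, Egr4 and Nr4a2 differed in hippocampus by -0.04 (95% interval -0.25 to 0.16), -0.02 (-0.23 to 0.19) and -0.0023 (-0.21 to 0.20).

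Whether knockout had another effect in bulb than in hippocampus was tested for each gene by the difference of both effects, bulb minus hippocampus. No member passed (0 of 44, background 0.015%), and 8 had an unadjusted p under 0.05, against 10.7% of all genes. These were Fosb (-0.69), Egr4 (-0.47), Nr4a2 (-0.47), Egr3 (-0.46), Nptx2 (-0.40), Vgf (-0.37), Pim1 (-0.28) and Klf10 (-0.25), all more negative in bulb, with adjusted p from 0.374 to 0.455. Npas4 lay at -0.48 (95% interval -1.08 to 0.11) and Btg2 at -0.17 (-0.55 to 0.22). More negative in bulb were 17 of the 20 rapid transcription factors and 7 of the 9 delayed effectors, with medians of -0.19 and -0.15. Of all genes 60.8% were more negative in bulb, with a median of -0.04. Calls in bulb and none in hippocampus thus do not amount to a difference between the tissues past the test. In each of the 21 alternatives of this comparison 0 members passed.

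With both tissues of an animal averaged, so that 3 WT animals stood against 3 KO animals, Btg2 alone passed (-0.67, SE 0.0999, limma adjusted p = 0.00917). By the same rule 0.266% of genes were lower and 0.311% higher in KO, and 0 members were higher. At an unadjusted p under 0.05 stood 14 members, against 9.93% of all genes. Npas4 (-0.74, adjusted p = 0.0634), Fosb (-0.73, adjusted p = 0.0887) and Egr3 (-0.27, adjusted p = 0.0603) came next. Btg2 did not pass without KO animal N384 or without KO animal N390, and its adjusted p over 13 alternatives ran from 0.00385 to 0.0666. Beside Btg2, Npas4 passed without WT animal I547, Fbxo33 without WT animal N138, and Fosb and Npas4 without KO animal N386.

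In each genotype 1 animal gave high early gene levels in both tissues. WT animal N138 gave the highest WT value for 16 of the 20 rapid transcription factors in bulb and 15 in hippocampus, where it did so for 35.6% and 28% of all genes. For 13 of them, Fos, Fosb, Npas4, Egr1 and Nr4a1 among them, it was highest in both tissues, against 8.98% of all genes. KO animal N386 gave the highest KO value for 15 in bulb and 14 in hippocampus (32.3% and 39.2% of all genes), and for 12 in both (12.9% of all genes). KO animal N390 was lowest for 15 in bulb (41.2% of all genes) and KO animal N384 for 15 in hippocampus (30.5%). Among WT animals N135 was lowest for 13 in bulb (42.1% of all genes) and I547 for 13 in hippocampus (30.6%). The list of heat shock and handling genes had in N386 its highest KO mean in both tissues, 8.71 in bulb against 8.45 and 8.50, and 9.23 in hippocampus against 8.85 and 8.95. In N138 the list was not highest: 8.48 in bulb against 8.46 and 8.53, and 8.91 in hippocampus against 8.95 and 8.85. The part of the animals' state in the genotype differences was not tested.

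Most of the early genes varied more within groups than the median gene did. The SD within groups had a median of 0.131 over the 44 members and 0.106 over all genes, and 33 members lay above the median of all genes. By class the median was 0.135 in rapid transcription factors (17 of 20 above that of all genes) and 0.115 in delayed effectors (6 of 9). Egr2 varied most among the members, with an SD of 0.391, a higher SD than 99.8% of genes. Fosb (0.333), Npas4 (0.314), Arc (0.31) and Fos (0.297) followed, so Fosb and Npas4, the members that fell most in bulb, also had a wide spread between animals of a group. Klf4, Maff, Ier2, Ier3, Plk3 and Pim1 had a mean under the median of all probe sets (6.90).

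More of the early genes differed between the tissues than between the genotypes. In WT mice 31 of 44 differed between hippocampus and bulb (background 40.9%), of which 22 were lower in hippocampus (background 23.4%) and 9 higher (background 17.5%). Npas4, Fosb, Nr4a1, Inhba and Egr1 stood farthest below 0, and Ptgs2 and Plk2 farthest above it. In KO mice 26 differed (background 39.1%), 16 lower (background 19.9%) and 10 higher (background 19.2%). The scale bears on this split: centring each array on its median moved the median of all genes by 0.11 and gave 12 higher and 19 lower members in WT, and quantile normalization gave 11 and 20. Over all genes the share of calls that were higher in hippocampus went from 42.7% to 63% with centring and 52.4% with quantile normalization in WT. In KO both settings gave 13 higher and 16 lower members, and the share over all genes went from 49.2% to 62.9% and 59.1%.

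Npas4 had the largest tissue difference of the members (-2.28 in WT, SE 0.198, limma adjusted p = 2.11e-07), a 4.87-fold lower level. Its WT bulbs read 10.17 to 10.54 and its WT hippocampi 7.68 to 8.35. Fosb was lower too (-1.76, adjusted p = 6.05e-06). Nr4a1, a nuclear receptor gene induced with Fos, read 10.90, 10.88 and 11.48 in WT bulbs, 10.85, 10.92 and 10.78 in KO bulbs, 9.10, 9.56 and 9.90 in WT hippocampus and 9.28, 9.55 and 9.50 in KO hippocampus. It differed by -1.57 between the WT tissues and by -1.41 between the KO tissues, and the genotypes overlapped in each tissue. Inhba, the activin A subunit, read 9.35, 9.43 and 9.10 in WT bulbs, 9.26, 9.25 and 9.16 in KO bulbs, 7.92, 7.75 and 7.85 in WT hippocampus and 7.84, 8.07 and 7.85 in KO hippocampus. It was the delayed effector farthest below 0, at -1.45 in WT and -1.30 in KO. Egr1 (-1.44), the kinase gene Sik1 (-1.33), Fos (-1.31), Dusp1 (-1.13), the bZIP repressor gene Nfil3 (-1.02) and Egr2 (-0.94) were also lower in WT hippocampus.

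Ptgs2 and Plk2, a polo-like kinase gene of synaptic scaling, were higher in hippocampus. Ptgs2 read 8.03, 8.21 and 7.80 in WT bulbs and 7.96, 7.95 and 8.02 in KO bulbs, and the WT hippocampi stood above them by 1.92 (SE 0.101, limma adjusted p = 7.79e-10), a 3.77-fold difference. Plk2 read 8.14, 8.30 and 8.18 in WT bulbs, 8.09, 8.31 and 8.10 in KO bulbs, 9.85, 9.97 and 10.15 in WT hippocampus and 10.06, 10.17 and 10.05 in KO hippocampus. Its tissue difference was 1.78 in WT and 1.93 in KO, and the genotypes overlapped. Jun, unlike the Fos genes, was higher in hippocampus by 0.70. It read 9.18, 9.31 and 9.44 in WT bulbs, 9.21, 9.42 and 9.20 in KO bulbs, 9.87, 9.98 and 10.16 in WT hippocampus and 10.04, 10.05 and 9.92 in KO hippocampus. Nr4a3, at 9.98, 9.78 and 10.09 in WT hippocampus and 9.73, 9.84 and 9.73 in KO hippocampus, was higher there by 0.65 in WT, while its relatives Nr4a1 and Nr4a2 were lower (-1.57 and -0.63).

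The tissue differences of the genes that fell in KO bulb were less negative in KO than in WT mice. Egr3 went from -0.24 to 0.23, neither past the test. Egr4 went from -0.47 in WT to 0.00061 in KO, Nr4a2 from -0.63 to -0.16 and Fosb from -1.76 to -1.08. This restates the difference of effects given above, which did not pass for any member. The genes were chosen for low KO bulb values, which enter the KO tissue difference, so the direction follows in part from the choice. Arc (-0.57 in WT, adjusted p = 0.0292) was lower in hippocampus in WT and not past the test in KO (-0.13, adjusted p = 0.646). Homer1 (0.34) and Vgf (0.46) were higher in KO hippocampus, where WT gave 0.16 and 0.09 without passing.

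**Figure D4:**
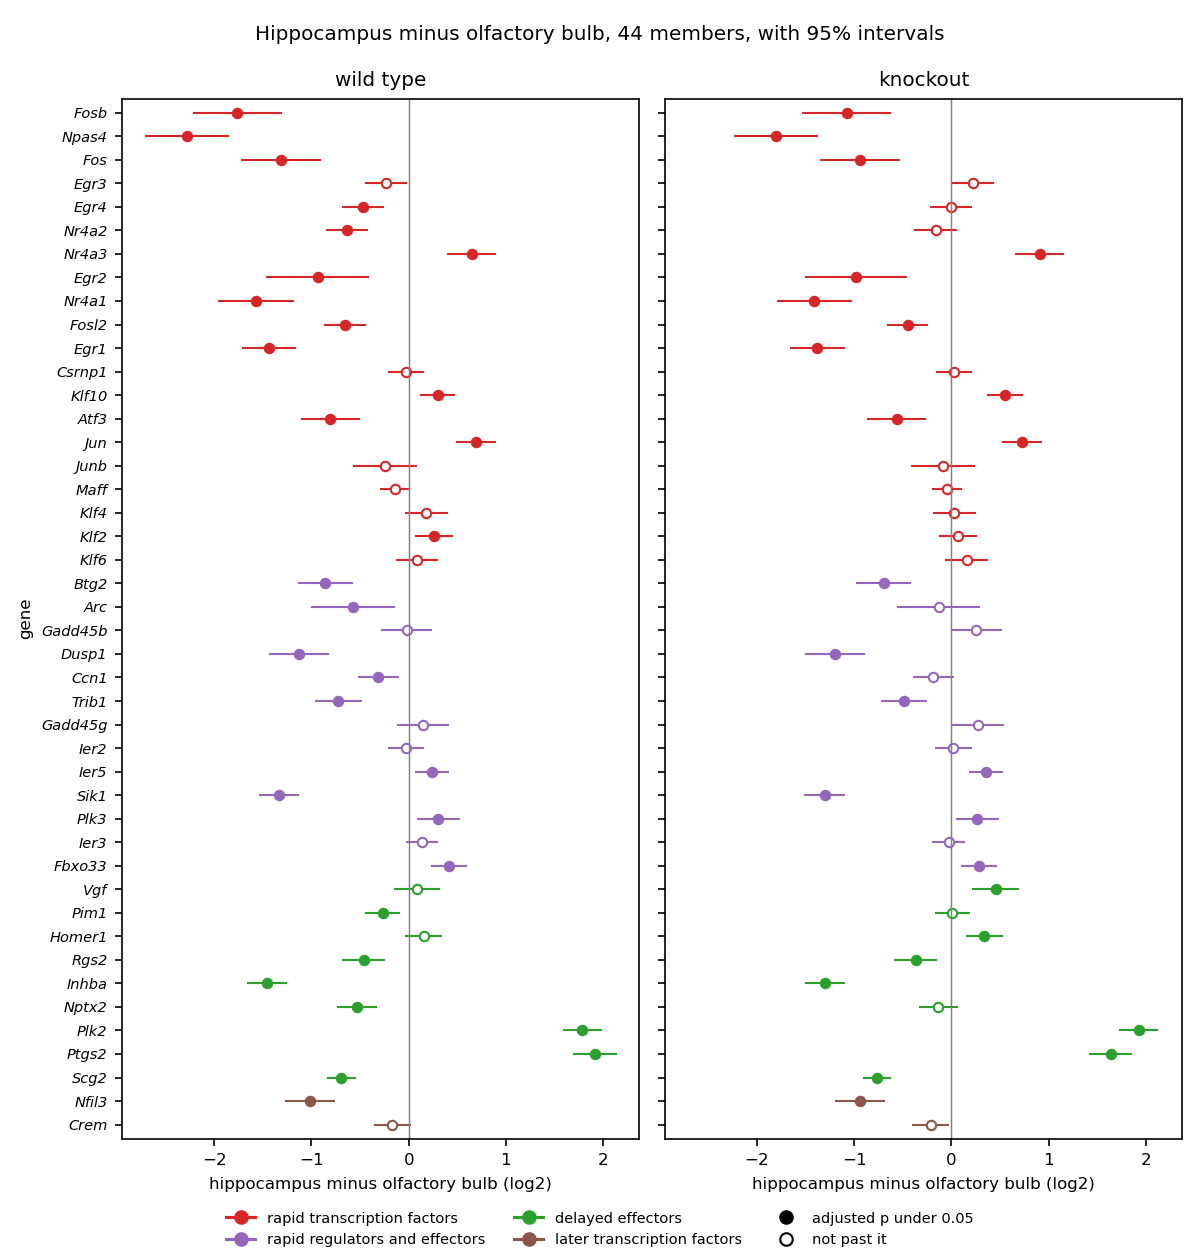
Hippocampus minus olfactory bulb difference (horizontal axis, log2 units, with 95% intervals of the limma fit) of the 44 members in WT (left) and KO mice (right), grouped by role; filled points passed an adjusted p under 0.05. Npas4 stands farthest below 0 in both panels (-2.28 and -1.80), and Plk2 (1.78 and 1.93) and Ptgs2 (1.92 and 1.64) stand farthest above it.

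Further activity-induced genes gave 1 call. Of 23 further activity-induced genes measured, from a list of 25, 17 lay below 0 in KO bulb, with a median of -0.10. The ERK phosphatase gene Dusp4 read 7.21, 7.40 and 7.21 in WT and 6.84, 6.67 and 6.83 in KO bulbs, fell by 0.49 (SE 0.0895, limma adjusted p = 0.0294) and passed in 9 of 15 alternatives. Bdnf, Pcsk1 and Per1, the first of that list, lay at -0.15, -0.05 and -0.21. In hippocampus 10 of the 23 lay below 0 and 0 passed. Of all genes 55.5% lay below 0 in bulb and 37% in hippocampus. Of 22 measured upstream activators, the kinases, coactivators and receptors that induce early genes, 13 lay below 0 in bulb and 15 in hippocampus, with medians of -0.03 and -0.04, and 0 passed in either tissue. Creb1, Crtc1 and Crebbp, the factor and its coactivators, lay at 0.03, -0.13 and 0.0028 in bulb. Of 9 heat shock and handling genes 0 passed in either tissue, and Hspa1a, a heat shock chaperone gene, lay at 0.36 in bulb and 0.49 in hippocampus.

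Marker lists of cell types are given beside these genes, and their part in the results was not tested. Among 10 bulb neuron markers 8 lay above 0 in KO bulb, and Dlx5, a homeobox factor of bulb interneurons, rose by 0.84 (SE 0.107, limma adjusted p = 0.00117). The mean of that list was 9.79, 9.79 and 9.70 in WT and 9.92, 9.87 and 9.96 in KO bulbs. All 8 meningeal markers lay below 0 in KO bulb (median -0.17), with a list mean of 8.13, 8.07 and 7.71 in WT and 7.81, 7.75 and 7.81 in KO, and 0 passed. Of 11 markers of endothelium and vessel wall 9 lay below 0 in each tissue, and 0 passed. The mean of the olfactory sensory and mucosa genes stood at 8.37 in WT bulb 1 and between 7.57 and 7.87 in the other WT and all KO bulbs. In WT bulbs 1 to 3 Cyp2g1 read 8.29, 5.68 and 5.55 and Stoml3 10.07, 9.24 and 7.87. Omp read 8.90, 8.94 and 8.79 and Adcy3 7.97, 8.22 and 8.16, so not all of the list was highest in WT bulb 1. In KO hippocampus all 6 oligodendrocyte markers (median 0.27) and 7 of 8 markers of choroid plexus and ependyma (median 0.23) lay above 0, and 0 passed. Over all genes, 37% lay below 0 in KO hippocampus and 55.5% in KO bulb. Of 7 microglial and 7 astrocyte markers 4 and 5 lay below 0 in KO bulb, with medians of -0.01 and -0.05.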

How the data were processed

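Total RNA from olfactory bulb and hippocampus of 3 WT and 3 KO mice was extracted with Trizol and labelled with biotin, 1 array per sample, per the labels' protocols. For each array the authors deposited log2 intensities per probe set, made by RMA in the oligo package per the submitters' processing notes. The sources used here do not give tool versions or say which arrays were normalized jointly. RMA subtracts background and equalises distributions, which compresses differences near background. No deposited column lay outside the 12 samples.

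Of 35556 probe sets the platform's annotation lists 23410, with 1 gene symbol for 21789 and several for 1621; 12146 are unlisted and unnamed here. By Entrez identifier 21698 matched a RefSeq gene table (GRCm38.p6), which changed 0 symbols. For 999 genes with several probe sets the one with the highest mean over the 12 arrays was taken, which left 19938 genes, with no filter on low signal. Precision is limited by the number of arrays, which have no read depth. Replicates differed with an SD of 0.212 to 0.297 across probe sets, and none duplicated another.

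Groups were compared with limma 3.58.1 (R 4.3.3; lmFit and eBayes, Benjamini-Hochberg over all genes, threshold 0.05) in 1 model of the 4 group means. For the mean of the tissues each animal's arrays, joined by its code, were averaged first. P-values measure the spread between these animals, which the model of the 4 group means pools over both tissues. The method was tested on simulated data with independent noise for each gene and array. That simulation held no effect shared by the tissues of an animal or by genes, so it does not cover such effects. Alternatives were the arrays of the compared groups alone, trend and robust moderation, array weights, median centring, quantile normalization, a low-signal filter, the mean over probe sets, the animal as a block, other classes for 4 members, and each replicate left out.

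The members, classes and other lists were chosen with earlier results of these data known, so no p is given for a list. Values in every array are printed for members called in a genotype comparison, the 8 largest genotype differences in each tissue and the 4 largest WT tissue differences in each direction. From other lists the called genes and up to 3 others are named; Hspa1a was the first of its list.

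The tissues of an animal are paired by the labels' animal code. For 2 WT animals the title's number pairs them otherwise. By the code, deviations from the group means correlated between an animal's tissues by -0.255 to 0.116 over genes, so a shared animal effect was not visible over all genes. By the title's number the correlation was 0.25 for WT animal 1 and -0.15 for WT animal 2. With the code as a random block, the fit used a correlation over all genes of -0.07. Among the 20 rapid transcription factors, N138 was highest of its genotype in both tissues for 13 and N386 for 12. A shared animal effect in these members was not tested.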

Additional observations from a re-analysis of the deposited data

Results flagged for a closer look

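Nptx2, Pim1 and Vgf, all delayed effectors, were picked out because every KO array lay above the WT mean in hippocampus and below it in bulb. For Nptx2 the bulb part rested on WT bulb 2. Its bulbs read 8.61, 8.98 and 8.58 in WT and 8.64, 8.68 and 8.72 in KO, and only WT bulb 2 lay above the KO bulbs. Its bulb difference of -0.04 ran up to 0.09 over the alternatives. The difference of the effects, bulb minus hippocampus, was -0.40 for Nptx2, -0.28 for Pim1 and -0.37 for Vgf. By limma's interaction contrast none passed (adjusted p = 0.375, 0.419 and 0.422). In bulb Vgf passed when WT bulb 3 was left out, and Nptx2 passed in hippocampus with array weights, a setting that called 336 genes against 51.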

How the results depend on the processing

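The count of members called in KO bulb was 6 with all arrays and 3 with the bulb arrays alone (Fosb, Npas4 and Nr4a2). It was 3 with array weights and between 0 and 3 with a replicate left out. Over all genes the calls were 82 with all arrays, 36 with the bulb arrays alone and 88 with array weights. With a replicate left out they ran from 35 to 105. As a replicate block, the animal code left 4 of the 6 (Npas4 and Nr4a2 lost) and the title's number all 6; in hippocampus and for the difference between tissues the block left 0, and it changed no other count of members by over 1.5 times. In hippocampus, where 0 were called, the count was 1 with trend and robust moderation and 4 with array weights. Over all genes the calls there went from 51 to 71 and 336 in these settings. For the mean of the tissues the count of 1 became 3 with trend and robust moderation, array weights, median centring or the low-signal filter, 2 with quantile normalization, and 0 to 3 with an animal left out. The bulb median of the rapid transcription factors ran from -0.27 to -0.045 and that of the delayed effectors from -0.14 to -0.0019 with a replicate left out. In hippocampus the delayed median of 0.08 was 0.0373 with the other classes and 0.0078 to 0.11 with a replicate left out. No difference for which a gene was named by the rule changed sign in these settings. The genes were named for calls or large differences, so the kept signs follow in part from the choice. With 3 animals a group the spread within groups bore on what passed: Fos in bulb (-0.56, SE 0.188) missed the threshold where Egr3 (-0.50, SE 0.0963) passed. Each SE pools the spread of both tissues. The SD of Egr3 within groups was 0.16 in bulb and 0.088 in hippocampus, and with the bulb arrays alone Egr3 did not pass.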
